A study of Rattus norvegicus with 6 samples.

Results

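The genes described here are myogenic regulators and muscle differentiation factors, chosen by gene symbol from a list of 9. The read count tables of rat thyroid held 7 of them among 15388 genes, namely Myod1, Myf5, Pax7, Mef2c, Smyd1, Hfe2 and Art1. No row carried the symbol Myog or Myf6, and these genes are not analysed here. The thyroids came from adult Sprague-Dawley females, either non-pregnant (NP) or on day 18 of pregnancy (LP), where day 1 is the day of the vaginal plug. Each group had 3 samples of polyA+ RNA, and the labels name no transgene and no agent for either group. The question was how the maternal thyroid changes in late pregnancy, and each gene was compared between LP and NP.

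Skeletal muscle is built from precursor cells under the control of the basic helix-loop-helix (bHLH) factors Myf5, Myod1, Myog and Myf6, which bind E-boxes with partners of the same fold and act together with proteins of the MEF2 family. Pax7 marks the satellite cells, the resting stem cells of adult muscle. The thyroid itself consists mainly of follicular epithelium, but it lies on the trachea under the strap muscles of the neck, and a dissected gland can carry tissue of its surroundings. In bulk RNA, fewer cells of a type and less RNA per cell cannot be told apart.

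The libraries held between 2752144 and 3449857 counted reads, and thyroglobulin (Tg), the defining product of follicular cells, took 22.9% to 24.5% of them. All 12 follicular markers had reads in every library, so the labelled tissue was present in both groups. None of them met the criteria given below with edgeR or DESeq2. By edgeR, however, 8 had an unadjusted p below 0.05 and 7 an adjusted p below 0.05, 3 higher and 4 lower in LP. Over all 11738 genes tested by edgeR, 1794 were higher and 1374 lower in LP at an adjusted p below 0.05. Of the 12 follicular markers, Slc5a5, the iodide transporter, fell the most, by 0.94 on the log2 scale. In each group, the counts of replicates 2 and 3 agreed within sampling noise (chi-square per degree of freedom of 1.02 in NP and 0.995 in LP), and they were counted as 1 sample in every mean ± SD (n = 2). Replicate 1 stood apart in both groups, with 638 to 743 reads on 6 smooth muscle markers against 5025 to 5726 in the other libraries, and none of these 6 met the criteria or had an unadjusted p below 0.05 by edgeR. The tests, however, took replicates 2 and 3 as separate samples, except where their sum is named. Each standard error and p-value thus rests on more samples than the n = 2 of the SD. The p-values given here measure only the spread between these samples, which may be technical. On skeletal muscle, the libraries differed between the groups. Of 31 listed markers of mature muscle fibres, 26 had rows, while Ckm, Mb, Myh2, Myh4 and Myh7 had none. The 26 had 123 to 272 reads in an NP library and 25358 to 25795 in an LP library, or 0.00447% to 0.00920% against 0.746% to 0.787% of all reads. Acta1 supplied 0, 166 and 144 of these reads in NP replicates 1, 2 and 3. Of the 22 markers tested by edgeR's quasi-likelihood test, 21 rose past the criteria used throughout, which are an adjusted p below 0.05 together with more than 2-fold change. Tnnc2, fast troponin C, had the most reads of them, with 22, 14 and 26 in the NP and 4554, 4532 and 4641 in the LP libraries. Tcap, the titin cap protein, and Ckmt2, the mitochondrial creatine kinase of muscle, had at most 2 reads in an NP library and 406 to 796 in an LP library. Myh1, an adult fast myosin heavy chain, had 0 reads in each NP library and 119, 105 and 109 in LP. Mybpc1, Mylpf and Myot were likewise at 0 in all NP libraries. Markers such as Myh1 and Mybpc1 passed the low-count filter only through their LP reads, so that a difference was a condition of their being tested. Acta1 was the tested marker that did not meet the criteria (log2 fold change 0.11, adjusted p = 0.93), and Casq1 and Mybpc2, both below the filter, had at most 4 reads in any library. The summed level of these markers thus moved with the rises described below, and its part in those results was not tested.

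**Figure D1:**
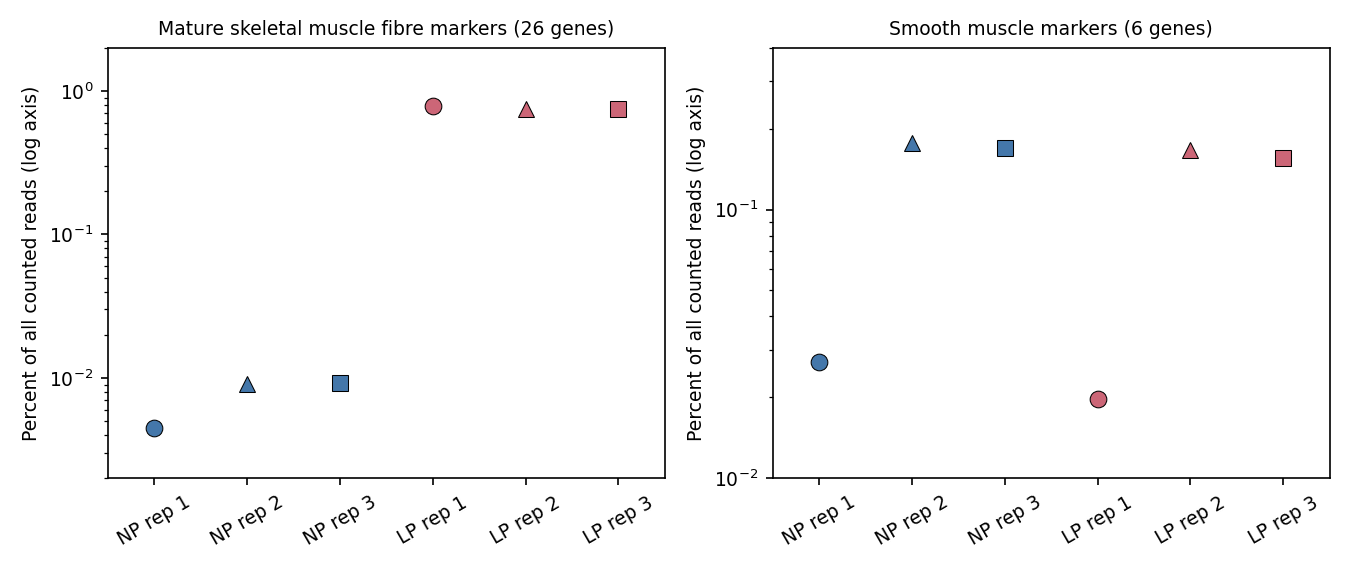
Percent of all counted reads on mature skeletal muscle fibre markers (left, 26 genes) and on smooth muscle markers (right, 6 genes) in each library, on log axes. Each point is 1 library, blue for NP and red for LP, and the symbol gives the replicate. The LP libraries lie at 0.746% to 0.787% on the left, above all NP libraries, whereas on the right replicate 1 of both groups lies below replicates 2 and 3.

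Among the 7 genes, Mef2c, Smyd1, Hfe2 and Art1 passed the low-count filter of edgeR at its default setting, and each of these 4 rose in LP past the criteria. Over all 11738 genes tested after it, 4.90% rose and 0.537% fell past the criteria. Smyd1, Hfe2 and Art1 passed the filter only through their LP reads, so that a difference between the groups was a condition of their being tested. The same holds for genes of the lists that were tested with no or next to no reads in NP. Pax7, Myf5 and Myod1 were below the filter. In the same test without the filter, where 4.40% of 15388 genes rose past the criteria, Pax7 met them and Myf5 and Myod1 did not. No LP value overlapped an NP value for Mef2c, Smyd1, Hfe2, Art1 and Pax7, an order seen for 18.5% of all genes. Levels are given as CPM, read counts relative to library size after TMM, a normalization on the genes that change least. They were compared within a gene only, since no transcript lengths were used.

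**Figure D2:**
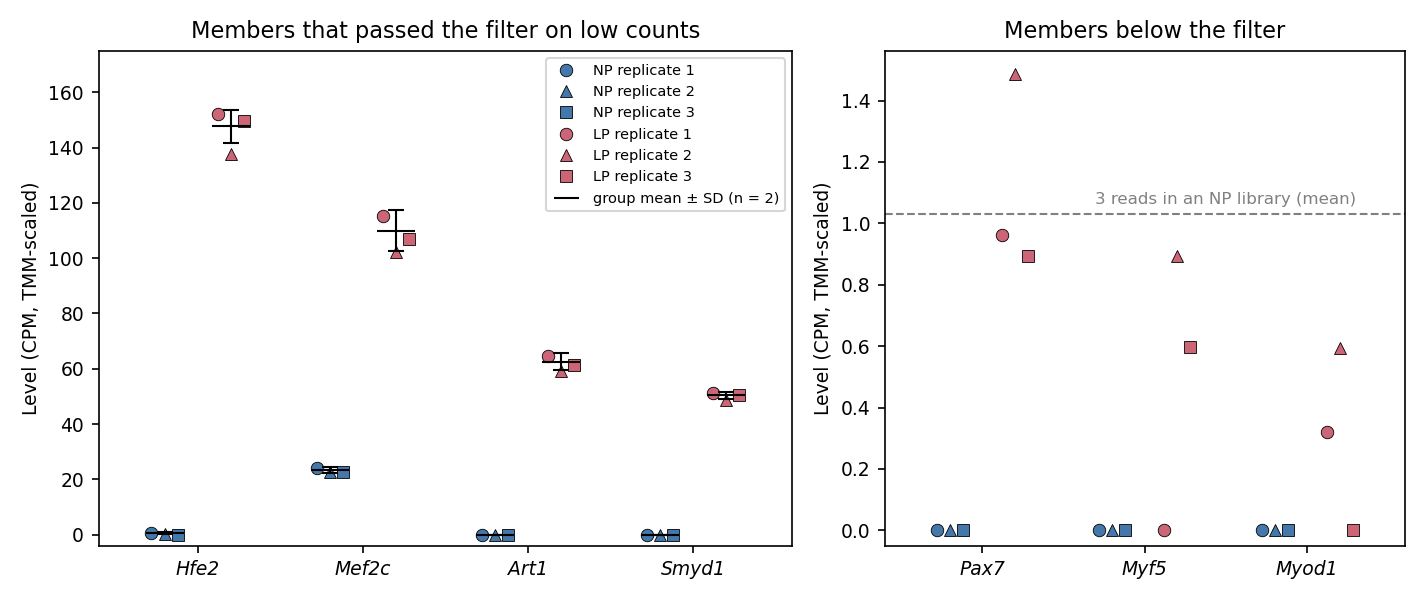
Levels of the 7 genes in CPM (TMM-scaled, linear axes), with NP in blue, LP in red and 1 symbol for each replicate. The left panel shows the genes that passed the filter, with the group mean ± SD (n = 2, replicates 2 and 3 counted as 1 sample), and the right panel those below it, with a dashed line at the mean level that 3 reads represent in an NP library. Mef2c is the gene with a level clearly above 0 in NP, and Myf5 and Myod1 stay below the dashed line in every library.

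Of the lineage factors, Pax7 was the one that met the criteria. Pax7 (ENSRNOT00000025488), a paired-box factor of satellite cells, had 0 reads in each NP library and 3, 5 and 3 reads in LP replicates 1, 2 and 3. All LP libraries lay above all NP libraries, but 2 of them held no more than 3 reads, the detection limit used for a library here. The mean LP level of 1.08 ± 0.16 CPM (SD, n = 2) was about that of 3 reads in an NP library, 1.03 CPM, so no fold is given. The adjusted p of edgeR without the filter was 0.0155. It was 0.0634 without LP replicate 2, 0.104 without replicate 1 of both groups and 0.0851 with DESeq2.

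Myf5 (ENSRNOT00000006453), the bHLH factor expressed earliest in muscle precursors, had 0 reads in each NP library and 0, 3 and 2 in the LP libraries. Myod1 (ENSRNOT00000015109), the bHLH factor that commits cells to the muscle fate, had 0 reads in NP and 1, 2 and 0 in LP. The groups overlapped for both genes at 0 reads. Without the filter, the adjusted p of edgeR was 0.151 for Myf5 and 0.276 for Myod1, and neither was detectable above the limit of 3 reads in any library. A count of 0 allows a level of up to 1.03 CPM in NP, a limit that covers counting error only.

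Mef2c (ENSRNOT00000076408), a MADS-box factor that works with the bHLH factors in muscle and is also active in endothelium, lymphocytes, cartilage and neurons, was the member with an appreciable level in NP. It had 67, 69 and 69 reads in the NP libraries and 359, 344 and 359 in the LP libraries. The counts within each group were close together, and the groups were far apart. Its level rose from 23.4 ± 0.93 CPM in NP to 109.9 ± 7.4 CPM in LP (SD, n = 2). The fold change was 4.66, a log2 value of 2.22 (SE 0.085, adjusted p = 1.21e-12 by edgeR). With the alternatives tried, the log2 value lay between 2.15 and 2.26. The adjusted p of Mef2c was 9.85e-09 by edgeR with replicates 2 and 3 summed.

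Markers of some of the other cell types that use Mef2c were examined beside it, with macrophages added. Neurons and lymphocytes other than B cells were not covered. Of 9 endothelial markers tested, none met the criteria in edgeR or DESeq2, 6 had an unadjusted p below 0.05, and 5 had an adjusted p below 0.05, all lower in LP. Over all 11738 genes tested, 1374 were lower and 1794 higher in LP at that adjusted p. Kdr, a receptor of vascular endothelial growth factor, fell by 0.31 on the log2 scale (standard error, SE, 0.063, adjusted p = 0.00130). Emcn, a sialomucin of capillaries and veins, fell by 0.59 (adjusted p = 0.000132 by edgeR). Erg, an endothelial ETS factor, fell by 0.62 (adjusted p = 0.0462 by edgeR), a fall that passed the criteria without replicate 1 of both groups (-1.05) but had an adjusted p above 0.05 in 7 of 14 alternatives, DESeq2 among them (highest 0.188). The summed endothelial reads were 0.0620% to 0.0662% of an NP library and 0.0493% to 0.0534% of an LP library. B lymphocyte markers were near 0, with 1 to 4 reads on 3 genes in any library. The 5 macrophage markers had 0.00791% to 0.00931% of the reads in NP and 0.00823% to 0.0101% in LP, and none met the criteria in edgeR or DESeq2, while 3 had an unadjusted p below 0.05. C1qa, a complement protein of macrophages, had the most reads of them (log2 fold change 0.33, adjusted p = 0.0587). In cartilage, Col2a1, the main collagen of that tissue, had at most 5 reads in any library. Sox9, which follicular and airway epithelium can express too, rose by 0.33 on the log2 scale (adjusted p = 0.00142 by edgeR).

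Smyd1 (ENSRNOT00000009184) is a lysine methyltransferase restricted to heart and skeletal muscle, where it takes part in sarcomere assembly. It had 0 reads in each NP library and 160, 164 and 169 in the LP libraries, or 51.3, 48.8 and 50.3 CPM. No NP library held a read of this gene, and the LP libraries were close to each other. Against that limit of 3 reads per NP library, the LP mean of 50.4 ± 1.2 CPM (SD, n = 2) was at least 48.9-fold higher. The adjusted p of edgeR was 7.63e-12. Smyd2, the broadly expressed relative of Smyd1, had 403, 367 and 384 reads in NP against 414, 445 and 395 in LP. This difference, -0.031 ± 0.072 (SE) on the log2 scale, was within the spread between libraries (adjusted p = 0.798 by edgeR).

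Art1 (ENSRNOT00000027427), a membrane-anchored enzyme of muscle fibres that attaches ADP-ribose to arginines of cell surface proteins such as integrin alpha 7, showed a similar picture. The NP libraries had 0 reads each, and the LP libraries had 202, 199 and 206, or 64.8, 59.2 and 61.4 CPM. The LP mean of 62.5 ± 3.2 CPM (SD, n = 2) was at least 60.6-fold above the level of 3 reads per NP library (adjusted p = 2.50e-12 by edgeR). Among its relatives, Art3 rose from 24, 17 and 28 reads to 157, 136 and 148, or 2.52 ± 0.17 on the log2 scale (SE, adjusted p = 2.12e-09). Art5 had 1, 0 and 0 reads in NP against 46, 56 and 54 in LP (adjusted p = 6.14e-09 by edgeR). Itga7, which encodes the integrin alpha 7 chain, rose by 0.52 on the log2 scale (SE 0.077, adjusted p = 5.14e-05), whereas its partner Itgb1 had a log2 fold change of -0.12 (adjusted p = 0.172 by edgeR).

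Hfe2 (ENSRNOT00000028781, named Hjv in RefSeq) encodes hemojuvelin, a co-receptor for bone morphogenetic proteins (BMPs) that is made in liver and in skeletal muscle and, in liver, raises the iron hormone hepcidin. It had 2, 1 and 0 reads in the NP libraries and 474, 462 and 502 in the LP libraries. The lowest LP library was thus far above the highest NP library. The level was 0.441 ± 0.39 CPM in NP and 147.7 ± 6.0 CPM in LP (SD, n = 2). The ratio of the summed reads, scaled by library size, was 432, with a 95% exact binomial interval of 148 to 2097 that covers counting error only. The log2 fold change of the model was 8.59 (SE 0.20, adjusted p = 1.16e-15 by edgeR). It was 9.49 without NP replicate 1, which held 2 of the 3 NP reads, and 8.04 without NP replicate 3, which held none.

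Of the 23 listed hemojuvelin relatives, BMP ligands, receptors, SMADs and iron genes tested, 0 met the criteria with edgeR or DESeq2, and 11 had an unadjusted p below 0.05. Their median log2 fold change was 0.055, against -0.0089 for all genes tested. With an adjusted p below 0.05, 4 were higher and 3 lower in LP, against 1794 higher and 1374 lower among all 11738 genes tested. The hemojuvelin relative Rgma rose by 0.80 on the log2 scale (SE 0.14, adjusted p = 0.000245), with 69, 139 and 126 reads in NP against 197, 218 and 228 in LP. The transferrin receptor Tfrc rose by 0.61 (adjusted p = 0.000192 by edgeR), as did Rgmb, by 0.47 (adjusted p = 0.0184). The ligand Bmp2 fell by 0.56 and the inhibitor Smad7 fell by 0.35 (adjusted p = 0.00257 and 0.0239 by edgeR). Of 15 alternatives, Smad7 had an adjusted p above 0.05 in 4 (highest 0.140) and Rgmb in 3 (highest 0.131), DESeq2 among them for both. Furin, a protease that cleaves hemojuvelin, had the most reads of the list (log2 fold change -0.10, adjusted p = 0.173). Without LP replicate 1, though not with all libraries, the hepatic protease gene Tmprss6 fell past the criteria, by 1.26 on the log2 scale. Since liver also makes Hfe2, its markers were counted as well. Alb had 1, 8 and 2 reads in NP against 26, 29 and 33 in LP (log2 fold change 2.81, adjusted p = 4.35e-05 by edgeR), while Apoa1 had 0 to 2 reads and Serpina1 1 to 8 reads in every library. Ttr and Fgb, for plasma proteins made in liver, had 0 reads in each NP library and 4, 1 and 6 and 3, 5 and 3 in LP, and both met the criteria without the filter (adjusted p = 0.0251 and 0.0155). The part of these reads in the Hfe2 result was not tested. Heart muscle, where Smyd1 and hemojuvelin are also made, gave 2 to 10 reads per library on 3 markers.

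The sequences before the start sites of Smyd1, Hfe2 and Art1 are shown because these genes went from no or next to no reads in NP to 160 reads or more in each LP library. They are the 250 bases upstream of the start site given by RefSeq on the assembly GRCr8, which is not the rn5 build of the counts, and they lie at chr4:104811273-104811522 on the minus strand for Smyd1, at chr2:186754551-186754800 on the plus strand for Hfe2 and at chr1:165894353-165894602 on the plus strand for Art1. Capitals mark E-boxes, CANNTG, the motif of bHLH dimers, and a site of the MEF2 family. Both motifs read the same on both strands.
Smyd1: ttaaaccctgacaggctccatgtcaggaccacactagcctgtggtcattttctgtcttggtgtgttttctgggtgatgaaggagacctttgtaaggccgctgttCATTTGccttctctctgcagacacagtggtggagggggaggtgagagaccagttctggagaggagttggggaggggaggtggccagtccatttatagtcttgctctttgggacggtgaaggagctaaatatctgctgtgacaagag
Hfe2: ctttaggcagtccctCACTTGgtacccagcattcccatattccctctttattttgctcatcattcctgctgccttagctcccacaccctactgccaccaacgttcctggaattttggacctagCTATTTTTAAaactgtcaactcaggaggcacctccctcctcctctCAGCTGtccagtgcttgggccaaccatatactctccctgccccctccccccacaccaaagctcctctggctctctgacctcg
Art1: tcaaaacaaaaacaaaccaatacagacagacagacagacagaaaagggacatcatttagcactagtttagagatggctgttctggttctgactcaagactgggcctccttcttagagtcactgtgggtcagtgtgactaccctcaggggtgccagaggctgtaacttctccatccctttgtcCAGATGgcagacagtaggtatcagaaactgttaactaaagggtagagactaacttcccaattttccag

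The search covered 300 bases, from 250 before to 50 after the start, and 5 of the 7 genes had an entry, which Myod1 and Mef2c did not. Hfe2 held an E-box 235 bases and another 82 bases before the start, the latter being CAGCTG, and a MEF2 site between them, beginning 127 bases before the start. Smyd1 had 1 E-box, 146 bases before the start. Art1 had an E-box 68 bases before the start and a further one that spans the start. The spanning match reads cagatg, with atg directly after the start, and whether transcription of Art1 begins there was not tested. The windows of Pax7 and Myf5 held none of the motifs. Of the 33469 promoters in the table, 72.1% held an E-box, 15.1% the form CAGCTG, 3.29% a MEF2 site and 1.64% a CArG box, the motif of serum response factor, which none of the 5 had. A match describes the letters in this window and is not a site shown to be bound.

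The rest of the myogenic network was described by lists of its genes. Of 11 upstream and cooperating factors tested, 3 rose past the criteria and none fell, with a median log2 fold change of 0.54. Vgll2, a cofactor of TEAD proteins in muscle, had 0 reads in each NP library and 31, 38 and 31 in LP, at least 9.80-fold above 3 reads per library. Mstn, the secreted inhibitor of muscle growth, rose from 3, 5 and 2 reads to 16, 23 and 33 (log2 fold change 2.65, adjusted p = 9.51e-05). The homeobox factor Six4, which acts before the bHLH factors, rose less, by 0.58 on the log2 scale (adjusted p = 0.00254 by edgeR). Tead1, the DNA-binding partner of Vgll2, met the criteria without NP replicate 1, NP replicate 2 or LP replicate 2 (log2 fold change 1.03 to 1.11) and, with all libraries, when muscle markers and called genes were kept out of the TMM scaling (1.00, adjusted p = 0.00223), but not with the scaling used here (0.98, adjusted p = 0.00257). Eya2, a cofactor of Six4 and its relatives and the gene of the list with the most reads, had a log2 fold change of -0.038 (adjusted p = 0.776).

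Other satellite cell and myoblast genes gave 1 rise past the criteria among 9 tested. Cdh15, the cadherin of myoblasts and satellite cells, had 2, 5 and 0 reads in NP and 29 in each LP library, or 3.42 ± 0.45 on the log2 scale (SE, adjusted p = 1.43e-05). Sdc4, a syndecan found on many cell types, fell by 0.44 (adjusted p = 6.82e-06 by edgeR). Fgfr4, a receptor of myoblasts, was below the filter with 3, 1 and 4 reads against 10, 10 and 14, and met the criteria in the test without it (adjusted p = 0.00875). It also passed the filter without any 1 of the NP replicates, which makes 2 rises in this list. Of genes of embryonic or regenerating fibres, 3 had rows. Myl4, an embryonic and atrial myosin light chain, had 1, 0 and 3 reads in NP against 38, 56 and 53 in LP (log2 fold change 4.93, adjusted p = 9.68e-08), while Ncam1 and Tnnt2 had adjusted p-values of 0.0723 and 0.567 by edgeR.

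Within the MEF2 family, Mef2c was the member past the criteria. Mef2d had 148, 163 and 197 reads in NP against 293, 303 and 290 in LP. The difference on the log2 scale was 0.65 ± 0.081 (SE, adjusted p = 7.42e-06). Mef2a rose by 0.52 (SE 0.098, adjusted p = 0.000657), and Mef2b had at most 2 reads in any library. None of the 7 genes tested in the list of MEF2 relatives, serum response factor and their cofactors met the criteria with edgeR or DESeq2, and 5 had an unadjusted p below 0.05. Hdac4 and Hdac5, deacetylases that repress MEF2 proteins, had log2 fold changes of 0.45 and 0.27 (adjusted p = 0.0244 and 0.00639). The adjusted p of Hdac4 was above 0.05 in 8 of 15 alternatives (highest 0.181), DESeq2 among them, and that of Hdac5 with DESeq2 alone (0.0608). Hdac9 was below the filter with 3, 5 and 8 reads against 10, 22 and 17, and met the criteria without the filter (adjusted p = 0.0148), which makes 1 rise, as do the fits without NP replicate 3 or LP replicate 1. Mef2c and its relatives were not compared by a test of the difference.

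The bHLH partners and antagonists held 4 genes that were lower and 1 that was higher in LP at an adjusted p below 0.05. Over all 11738 genes tested, 1374 were lower and 1794 higher at that adjusted p. Of the 10 genes of this list tested, 1 fell past the criteria and 2 had a fold change above 1, with a median log2 fold change of -0.16. Id3 and Id1, which bind the bHLH partners and keep them from DNA, fell by 0.59 and 0.40 on the log2 scale (adjusted p = 2.01e-07 and 2.98e-05 by edgeR). Their reads were 967, 1036 and 1004 in NP against 712, 729 and 781 in LP for Id3. Id2, the gene that was higher, had a log2 fold change of 0.19 (adjusted p = 0.0324), which was above 0.05 in 9 of 15 alternatives, DESeq2 and the sum of replicates 2 and 3 among them (highest 0.263). Hey1, a repressor under Notch, had 21, 13 and 12 reads in NP against 10, 6 and 6 in LP (log2 fold change -1.20, adjusted p = 0.0253). It did not meet the criteria with DESeq2, nor without NP replicate 1, LP replicate 2 or LP replicate 3, and its highest adjusted p over the alternatives was 0.145. E proteins, the bHLH partners themselves (Tcf3, Tcf4 and Tcf12), had no adjusted p below 0.05.

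Most genes listed as other muscle-restricted regulators and chaperones rose together with the members. Of 18 tested, 16 rose past the criteria and none fell, with a median log2 fold change of 6.24. The list also holds the broadly expressed Smyd2, which did not meet the criteria. Lmod3 and Trim55, with 0 NP reads, and others near 0 passed the filter only through their LP reads. A difference between the groups was thus a condition of their being tested. Ankrd2, Kbtbd12 and Lmod2 were below the filter and are not in these counts. Kbtbd12 had 0 reads in each NP library and 7, 16 and 13 in LP. It met the criteria in the test without the filter (adjusted p = 9.21e-05 by edgeR). Cmya5, a protein at the costameres of muscle fibres, had 11, 19 and 10 reads in NP against 3025, 3100 and 3057 in LP. The difference on the log2 scale was 7.68 ± 0.11 (SE, adjusted p = 1.67e-18). Lmod3, an actin nucleator of thin filaments, had 0 reads in each NP library and 176, 143 and 167 in LP, at least 49.7-fold above 3 reads per library. Trim54 and Trim55 are ubiquitin ligases of the sarcomere. Trim54 had 2, 0 and 1 reads in NP against 417, 421 and 391 in LP, and Trim55 had 0 in each NP library and 29, 39 and 32 in LP. Unc45b, a chaperone of myosin that works beside Smyd1, rose from 1, 1 and 3 reads to 184, 179 and 193 (log2 fold change 6.55, adjusted p = 5.42e-13).

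**Figure D3:**
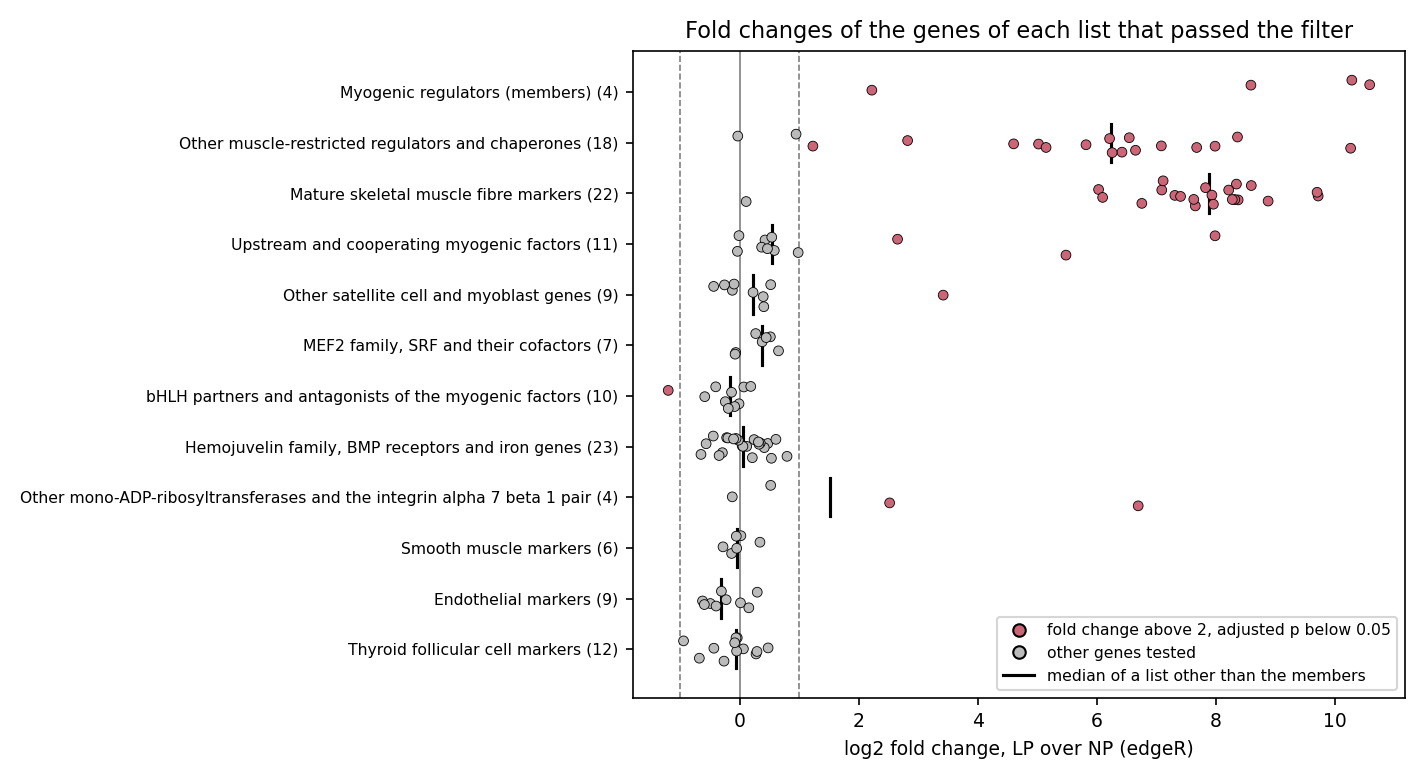
Log2 fold change, LP over NP, of each gene that passed the filter, by list (number of genes tested in brackets). Red points meet the criteria, grey points do not, short black bars are medians of the lists other than the members, and dashed lines mark a 2-fold change. The members, the other muscle-restricted regulators and the fibre markers lie mostly to the right of the dashed line, while the MEF2 family, the bHLH partners and the hemojuvelin and BMP genes lie mostly between the dashed lines.

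Within the LP libraries, Hfe2, Mef2c, Art1 and Smyd1 were also set against the muscle reads. For every 1000 reads on the 26 fibre markers, LP replicates 1, 2 and 3 had 18.7, 17.9 and 19.5 reads of Hfe2. The same measure was 14.2, 13.3 and 14.0 for Mef2c, 7.97, 7.71 and 8.01 for Art1 and 6.31, 6.36 and 6.57 for Smyd1. These shares count reads without regard to transcript length and do not rank the genes. In the NP libraries, Mef2c had 67, 69 and 69 reads beside 123, 270 and 272 on the fibre markers, a far higher ratio. Acta1 alone supplied 166 and 144 of these marker reads in NP replicates 2 and 3. The ratio of Mef2c to the marker reads was thus similar among the LP libraries and higher in NP, where few marker reads were counted. The reason for this difference was not tested.

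The genes with the most similar profiles were sought by the distance between log2 levels over the 6 libraries, after centring each gene, among 10446 other genes with a mean of at least 20 reads. Mef2c was nearest to Aldoa, a glycolytic aldolase, at a distance of 0.11, followed by Slc25a12, a mitochondrial aspartate carrier, and Phka1, a muscle subunit of phosphorylase kinase. Hrc and Ryr1, both of the sarcoplasmic reticulum, were among the neighbours of Hfe2 (0.39 and 0.50). Smyd1 was nearest to Lmod3 (0.24), Murc, a caveolar protein of muscle, and Ankrd23, a titin-binding protein. Art1 was nearest to Smyd1 (0.37), Neb, the thin filament protein nebulin, and Lmod3. With a pseudocount of 2 in place of 0.5, 5 of the 12 neighbours, 3 for each gene, were found again. The neighbours share the contrast between the groups and the libraries, and nothing about a common control follows.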

How the data were processed

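RNA of 6 rat thyroid samples (3 NP, 3 LP) was analysed from the read counts per gene that the authors deposited without normalization. The authors mapped reads to rn5 with TopHat 1.4.0 and counted them with HTSeq-count on Ensembl gene models, and the strand setting is not given in the sources used here. Depth was 2752144 to 3449857 reads, so 3 reads stand for about 1.03 CPM in NP and 0.927 CPM in LP.

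LP was compared with NP in R 4.3.3 by edgeR 4.0.16 (quasi-likelihood test, TMM, default filter, Benjamini-Hochberg adjustment over 11738 genes); values of genes that failed the filter come from a fit without filtering. A standard error is the size of the log2 value over the root of its F statistic. DESeq2 1.42.0 was an alternative. The steps were tested on simulated counts. The members and gene lists were chosen with earlier results of these data known. Genes were named by rule: all members, the 3 nearest profiles, and for each list up to 3 largest rises, up to 2 largest falls and the gene with most reads. Smyd2, Unc45b, Apoa1, Serpina1, Ttr, Fgb, Acta1, Casq1, Mybpc2, Col2a1, Six4 and Tead1 were named after their values were seen. So were Id1, Mef2b, Tnnt2, Fgfr4, Hdac9, Tmprss6, Kbtbd12, Mylpf, Myot, Mybpc1 and the E proteins. Some genes that the rule names are not reported here. Promoters come from RefSeq (GRCr8).

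Same-numbered samples deviated together from their group means (r = 0.486, 0.218 and 0.185 for replicates 1, 2 and 3), but NP and LP replicates 2 and 3 did so with crossed numbers too (0.213 for both). The deviations within a group cancel out. The values for replicates 2 and 3 thus follow in part from replicate 1 and show no pairing of their own. The pairing used comes from the labels' numbers. The block was used as an alternative, beside other normalizations, filters, tests and thresholds, each replicate left out, and replicates 2 and 3 summed.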

Additional observations from a re-analysis of the deposited data

How the results depend on the processing

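Mef2c, Smyd1, Hfe2 and Art1 stayed past the criteria in the same direction under all 18 alternatives, and Myf5 and Myod1 stayed outside them in the 16 that gave a value. Pax7 lost its call with DESeq2 (log2 fold change 4.16), with the fold change tested against 2 or an adjusted p below 0.01 (4.85 in both), and, a setting added after seeing the data, without replicate 1 of both groups (4.97). With each replicate left out, its value lay between 4.57 and 4.96 and the call was lost without LP replicate 2. Pax7 had 0 reads in NP, so its log2 values in this paragraph depend on how a fit treats a count of 0. They only compare the settings and give no fold. The count of members past the criteria was 4 or 5 throughout. With the replicate block, Pax7 had a log2 fold change of 4.85 (adjusted p = 0.0354 by edgeR), 5 members were past the criteria, and the block changed no other call of a member or count of a list by more than 1.5 times. It lowered edgeR's coefficient of variation from 0.0645 to 0.0131. Over all genes, requiring 50 reads on average left 286 rises and 29 falls, and the fold change tested against 2 left 366 and 23, in place of 575 and 63.

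The 1 fall among the bHLH partners and antagonists, Hey1, was 0 with a mean of at least 50 reads, DESeq2, the fold change tested against 2, an adjusted p below 0.01, replicates 2 and 3 summed, and without replicate 1 of both groups, and 0 to 1 with each replicate left out. The mean of at least 50 reads also left 0 of 3 rises among the upstream and cooperating factors, 0 among the satellite cell and the embryonic genes, 1 among the Art1 relatives and 0 among the hepatocyte markers, since it tests fewer genes. The MEF2 relatives and cofactors had 1 rise in place of 0 with no filter, with replicates 2 and 3 summed with or without the block, and without replicate 1 of both groups, and 0 to 1 with each replicate left out (1 without NP replicate 3 or LP replicate 1). The satellite cell genes had 2 rises in place of 1 with no filter and with replicates 2 and 3 summed with or without the block, and 1 to 2 with each replicate left out (2 without NP replicate 1, 2 or 3). The hemojuvelin and BMP genes had 1 fall, Tmprss6, without replicate 1 of both groups, and 0 to 1 with each replicate left out (1 without LP replicate 1). The follicular markers had 1 fall with library totals alone, the endothelial markers 1 without replicate 1 of both groups, and the hepatocyte markers 3 rises with no filter. Skeletal muscle markers took 0.767% of all LP reads and 1.00% of those other than Tg. Where no further cause is given, the cause was not tested. Depth limits Pax7, Myf5 and Myod1, which never exceeded 5 reads in a library.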

Other observations

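The skeletal muscle markers did not all move together. Acta1, the actin of skeletal muscle fibres, had 0, 166 and 144 reads in NP against 0, 186 and 185 in LP. The difference on the log2 scale was 0.11 ± 0.65 (SE, adjusted p = 0.93 by edgeR). Its reads were absent from replicate 1 of both groups, the libraries with few smooth muscle reads. The smooth muscle genes Acta2 and Tagln, for comparison, had 241, 1181 and 1131 and 155, 1612 and 1493 reads in NP. Acta1 is closely related in sequence to other actin genes, so that its reads are uncertain. Casq1, the calcium store protein of fast fibres, had 0, 4 and 2 reads in NP against 0, 2 and 1 in LP. Mybpc2, a fast fibre myosin binding protein, had 0, 1 and 3 in NP and 0, 1 and 1 in LP. In the same LP libraries Tnnt3, a fast troponin, had 1453, 1436 and 1444 reads. Among the other muscle regulators, Ankrd2 and Lmod2 likewise stayed at 0 to 4 reads in every library. These genes were singled out after their values were seen.

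Among the LP libraries, the variance of the 3 raw counts divided by their mean was 0.061 for Art1, 0.124 for Smyd1, 0.212 for Mef2c and 0.879 for Hfe2. The median of this ratio was 0.519 over 20 skeletal muscle markers and 1.06 over all 5604 genes with a mean of at least 100 reads in LP. Only 3 libraries enter each ratio, and replicates 2 and 3 of LP could not be told from repeat counts of 1 sample.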
